A study of Mus musculus with 2 samples.

Results

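The D-type cyclins, the kinases they activate and the inhibitors that restrain those kinases decide whether a cell leaves the G1 phase and copies its DNA, and binding of the co-activator p300 around their genes was examined in the embryonic mouse cortex. The 8 genes were taken by name, of 22367 annotated protein-coding genes. They are the cyclins Ccnd1, Ccnd2 and Ccnd3, the kinases Cdk4 and Cdk6, and the Cip/Kip inhibitors Cdkn1a (p21), Cdkn1b (p27) and Cdkn1c (p57). A p300 peak was counted for a gene when its midpoint lay inside the gene body or within 500 kb of the transcription start site, a stretch called the window here. The windows of the 8 genes held 34 of the 6629 p300 peaks, or 0.513%, and no peak lay in more than 1 window.

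The peaks come from the dorsal cerebral wall of Swiss Webster embryos at E14.5, with no genotype or treatment contrast. Cortical hem, hippocampus and choroid plexus had been trimmed away, and 0.15 g of tissue was frozen, with 15 min in 1% formaldehyde for fixation. There was 1 p300 library, made from 30 micrograms of chromatin with 4 micrograms of the C-20 antibody, and 1 input library served as the control for peak calling. No replicate exists, so no comparison between samples can be made. The peak list holds positions only. Its values give neither the reads behind a peak nor the expression of any gene, so the tissue label could not be checked against marker genes, and ventricular zone progenitors, intermediate progenitors and young neurons cannot be told apart in it.

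In G1, a D-type cyclin binds Cdk4 or Cdk6, and the pair phosphorylates the retinoblastoma protein so that E2f factors can switch on genes of DNA replication. Cip/Kip proteins bind cyclin-Cdk pairs and hold the cell in G1. In the cortex the length of G1 is tied to the choice between a further round of division and neuron production, and p27 and p57 are known for their part in cell cycle exit of cortical progenitors. The protein p300 is an acetyltransferase without sequence preference of its own that is drawn to active enhancers by transcription factors. By the study's methods, peaks on exons and close to start sites were taken out of the list, so it is not a record of binding at promoters. In the annotation used here the removal was not complete, and 1 of the 34 peaks overlaps an annotated exon. The nearest peak to a start site of the 8 genes lay 15.8 kb away.

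Equal counts hid different layouts. Ccnd2, Ccnd3 and Cdkn1c each had 7 peaks in the window, Cdkn1b had 5, Ccnd1 and Cdk4 had 3, and Cdk6 and Cdkn1a had 1. At least 5 peaks were present for 4 of the 8 genes, and for 17.8% of all protein-coding genes. An exact Poisson 95% interval, which covers counting error only and treats peaks as independent, ran from 2.81 to 14.4 for a count of 7 and from 0.0253 to 5.57 for a count of 1. These intervals overlap, so the order of the counts is a description. A count of 7 or more was found in 8.63% of protein-coding genes, 3 or more in 35.3%, and 1 or more in 70.0%.

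**Figure D1:**
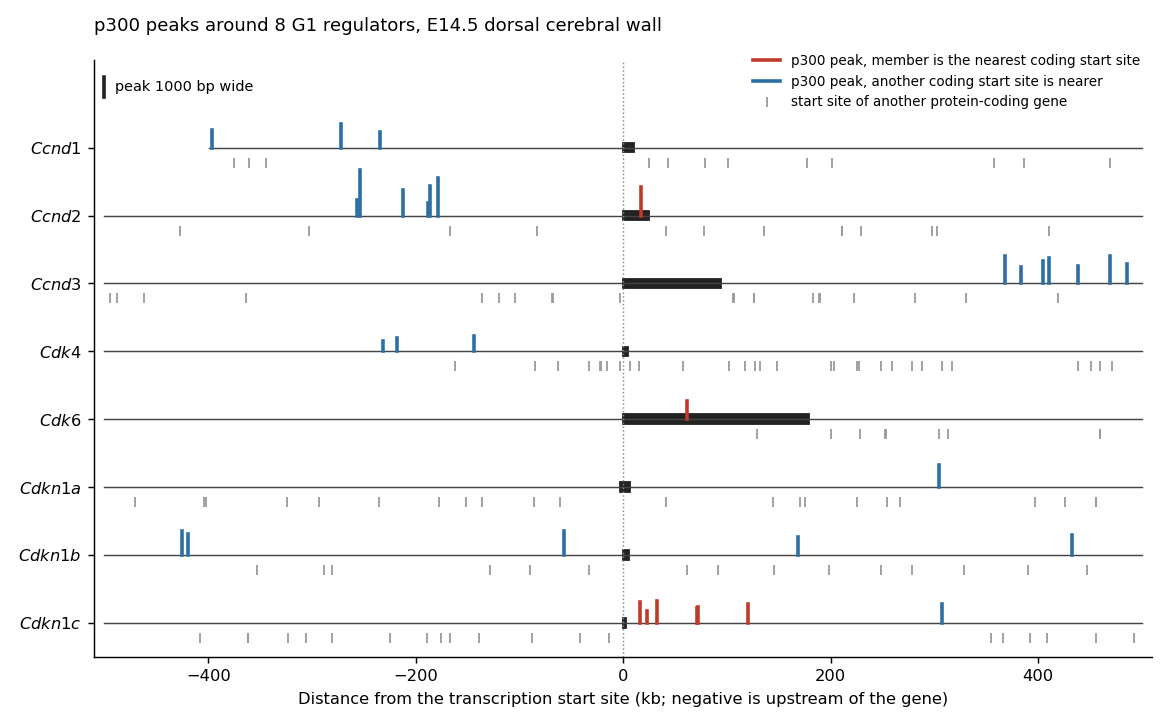
p300 peaks in the windows of the 8 genes, each row centred on the start site and turned so that the gene runs to the right; the horizontal axis is the distance in kb, the height of a peak line is the peak's width, dark boxes are gene bodies and grey ticks are the start sites of other protein-coding genes. Red lines, 8 in all, are peaks whose nearest coding start site is the member's, and the 26 blue lines have another coding start site nearer; the line of Ccnd1 stops where chromosome 7 ends.

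The distance from the start site to the nearest peak separated the genes differently. It was 15.8 kb for Cdkn1c and 17.2 kb for Ccnd2. For Cdkn1b it was 57.3 kb and for Cdk6 61.4 kb. The remaining genes lay farther away, at 144 kb for Cdk4, 234 kb for Ccnd1, 304 kb for Cdkn1a and 368 kb for Ccnd3. Peaks within 50 kb were thus found for 2 of the 8 genes, where 12.8% of protein-coding genes had one. Only 4.06% of protein-coding genes had a peak at least as close as that of Cdkn1c, and 4.41% had one at least as close as that of Ccnd2. The median distance was 103 kb over the 8 genes and 262 kb over all protein-coding genes.

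A stricter reading asks for which peaks the gene is the nearest of all protein-coding start sites. This held for 8 of the 34 window peaks, or 23.5% (exact Clopper-Pearson 95% interval 10.7 to 41.2%). Of these, 6 belonged to Cdkn1c, 1 to Ccnd2 and 1 to Cdk6. The other genes had none. Being the nearest gene of at least 1 peak was thus true of 3 of the 8 genes and of 14.4% of all protein-coding genes. Counted in the same way over every protein-coding gene, 11.6% of the pairs of a gene and a peak in its window had that gene as the nearest. By distance, 4 of the 34 peaks lay within 50 kb of the member, 4 at 50 to 100 kb, 10 at 100 to 250 kb and 16 at 250 to 500 kb, and in this last class another gene was nearer for every peak.

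**Figure D2:**
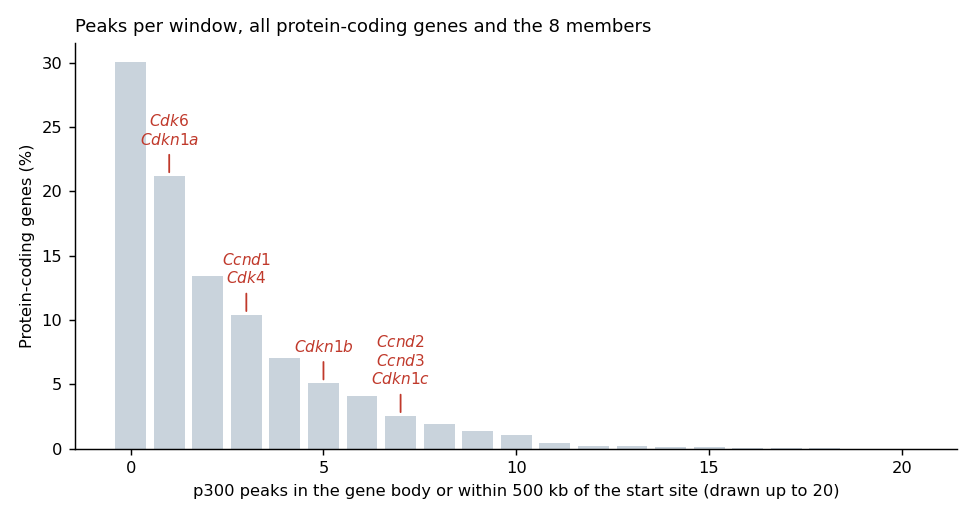
Share of protein-coding genes, on the vertical axis in percent, by the number of p300 peaks in the window, on the horizontal axis and drawn up to 20 peaks; the 8 genes are named above their counts. Cdk6 and Cdkn1a sit at 1 peak, and Ccnd2, Ccnd3 and Cdkn1c at 7.

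To set the counts against the room each gene has, a regulatory domain was drawn from 5 kb upstream to 1 kb downstream of every protein-coding start site and then lengthened on each side to the next such stretch, or by 1 Mb at most. The number of peaks in it was compared with its share of the assembled genome by a one-sided exact test on the binomial distribution, with p-values adjusted over 22367 genes by the Benjamini-Hochberg method. The test takes peaks as independent, whereas p300 peaks of this list lie in groups. Of the 8 genes, 1 passed, Cdkn1c, and 1.14% of all protein-coding genes did. Its domain of 362 kb held 7 peaks where 0.938 would be expected, a ratio of 7.47 (exact Poisson 95% interval 3.0 to 15.4; adjusted p = 0.00790 by the exact binomial test). It ranked 158 among the 22367 genes by this p. Ccnd1 had 2 peaks against 0.95 expected, Ccnd2 had 1 against 0.296 and Cdk6 had 1 against 1.22, each with an adjusted p of 1 in the same exact test. The domains of Ccnd3, Cdk4, Cdkn1a and Cdkn1b, at 10.7 to 107 kb, held 0 peaks against 0.0278 to 0.276 expected. With so few expected, a count of 0 does not show a lack of peaks. Fewer than 1 peak was expected for Cdkn1c too, and whether domain length bears on these counts was not tested.

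**Figure D3:**
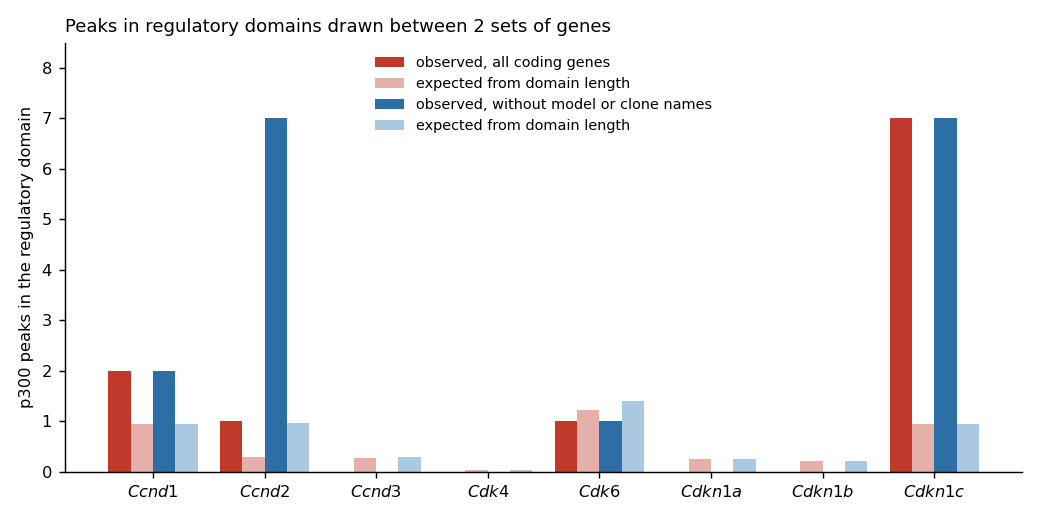
Observed and expected number of p300 peaks, on the vertical axis, in the regulatory domain of each gene on the horizontal axis; red bars use domains between all protein-coding genes and blue bars leave out genes with model or clone names, with the paler bar of each pair giving the number expected from the length. Cdkn1c stands at 7 observed peaks in both, and Ccnd2 goes from 1 to 7.

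Ccnd2 encodes the D cyclin known for its role in dividing cortical progenitors. Its position is chromosome 6, 127075797 to 127101066, minus strand (mm9; ENSMUSG00000000184). Peak 5437 sits within the gene in an intron, at chr6:127083151-127084646, and is 1496 bp wide, a width reached by 14.3% of all peaks. The other 6 peaks form a group of 79.2 kb upstream of the gene, from 127279116 to 127358302, at distances of 179 to 257 kb. The group includes peak 5442 at chr6:127353867-127356241, which at 2375 bp was the widest of the 34 (1.67% of all peaks were as wide), and peak 5438 at chr6:127279116-127281044, which is 1929 bp wide. Peaks 5439 and 5440 have midpoints 1.56 kb apart, and those of 5442 and 5443 are 2.84 kb apart. Between Ccnd2 and the group lie the start sites of 2 protein-coding annotations, Gm4968 and Gm10414, both model names. Gm10414 is the nearest coding start of 4 of the peaks, at 11.7 to 45.0 kb, and Parp11 of the other 2, at 45.9 and 48.7 kb.

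Whether the upstream group was counted for Ccnd2 rested on these 2 model names. With them in the annotation, the domains of Gm10414 and Parp11 each held all 6 peaks and that of Ccnd2 held none of them. Both neighbours passed the one-sided exact binomial test, Gm10414 with 0.554 expected (adjusted p = 0.00409) and Parp11 with 0.657 (adjusted p = 0.00892). Without genes that carry model or clone names, the Ccnd2 domain grew from 114 to 375 kb and held 7 peaks against 0.971 expected, a ratio of 7.21 (adjusted p = 0.00823, one-sided exact binomial test over 18511 genes, of which 1.27% passed). In that annotation Parp11 was the nearest named gene of all 6 peaks of the group, at 45.9 to 124 kb. The group lies between the start sites of Ccnd2 and Parp11, so the count does not assign it to either gene. With the non-coding annotation included, the intronic peak 5437 was nearer to a start site of 9330179D12Rik, at 15.7 kb, than to that of Ccnd2.

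The intronic peak, the peaks 5438 and 5442 of the upstream group and the nearest peaks of several other genes are given as sequence, to let the closest candidate elements be compared. Each is the 150 bases of the peak in which the most bases belong to the 12 short motifs searched, since the list gives no summit. They were read from the NCBIM37 assembly (mm9), plus strand, and capitals mark a motif on either strand.
Ccnd2 peak 5437, chr6:127084162-127084311: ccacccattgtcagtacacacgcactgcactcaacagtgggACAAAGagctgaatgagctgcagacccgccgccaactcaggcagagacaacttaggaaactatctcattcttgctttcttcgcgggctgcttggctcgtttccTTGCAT
Ccnd2 peak 5438, chr6:127279843-127279992: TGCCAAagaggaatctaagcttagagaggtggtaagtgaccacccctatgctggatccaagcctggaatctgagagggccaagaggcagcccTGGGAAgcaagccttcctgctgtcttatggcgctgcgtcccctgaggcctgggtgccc
Ccnd2 peak 5442, chr6:127356037-127356186: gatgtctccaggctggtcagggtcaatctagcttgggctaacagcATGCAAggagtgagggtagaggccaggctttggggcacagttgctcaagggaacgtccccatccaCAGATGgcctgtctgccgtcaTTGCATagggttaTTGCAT
The capitals in the intronic peak of Ccnd2 are a Sox and a POU motif. In peak 5438 they are an Nfi and an Rbpj motif, and in peak 5442 an E-box of the Neurod and Neurog form and 3 POU motifs.

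Ccnd1, the D cyclin best known as a target of mitogen and Wnt signals, lies near the end of chromosome 7, on the minus strand from 152115836 to 152125774 (ENSMUSG00000070348). Its window was cut to 898.8 kb, since 399 kb of chromosome remain upstream of the start site. All 3 of its peaks lie on that side. Peaks 5796 (chr7:152358896-152359700) and 5797 (chr7:152397436-152398652) are 234 and 272 kb away with no coding start site between, and both fall in the domains of Ccnd1 and of Tpcn2, whose start is 111 and 71.8 kb from them. Peak 5798 lies 396 kb away, beyond Tpcn2, Mrgprf and Mrgprd, and ends 2.29 kb before the end of the chromosome. Downstream of Ccnd1 the next peak is 902 kb from the start site, so that 1135 kb around the gene held no peak. The stretch of peak 5796 holds 3 E-boxes of one kind.
Ccnd1 peak 5796, chr7:152359133-152359282: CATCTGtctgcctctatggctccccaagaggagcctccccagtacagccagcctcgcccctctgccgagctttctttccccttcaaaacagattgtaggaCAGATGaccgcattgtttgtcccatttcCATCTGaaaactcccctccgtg

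Ccnd3 (chromosome 17, 47642000 to 47736632, plus strand, ENSMUSG00000034165) had as many window peaks as Ccnd2 but none close by. All 7 lay downstream at 368 to 485 kb, between 48009300 and 48127579, with the start sites of 10 or 11 other coding annotations in between. Foxp4, a forkhead transcription factor gene, was the nearest coding start of 6 and Mdfi of the other 1. Peaks 2702 to 2705 lie inside Foxp4, with peak 2703 overlapping an annotated exon of it, and peaks 2706 to 2708 lie upstream of it. The domain of Foxp4 held all of them, 9 peaks in total against 0.622 expected (adjusted p = 1.05e-05 by the exact binomial test). Upstream of Ccnd3 the nearest peak was 1631 kb away. A gene body of 94.6 kb and 1999 kb around the start site were thus without a peak.

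The 2 kinases contrasted in the same way. Cdk6 (chromosome 5, 3343893 to 3523218, plus strand, ENSMUSG00000040274) is the longer gene, with a body of 179 kb, and its only window peak is inside it. Peak 4630, at chr5:3404786-3405737, is 952 bp wide and lies in an intron 61.4 kb downstream of the start site, with no other start site nearer, coding or not. The next peak of the chromosome is 907 kb from it, and none lies on the upstream side, where sequence is unassembled towards the start of the chromosome: 843.9 kb of the 1000 kb window were assembled. The 4 motifs in its stretch are 3 E-boxes and a Tcf/Lef motif.
Cdk6 peak 4630, chr5:3405388-3405537: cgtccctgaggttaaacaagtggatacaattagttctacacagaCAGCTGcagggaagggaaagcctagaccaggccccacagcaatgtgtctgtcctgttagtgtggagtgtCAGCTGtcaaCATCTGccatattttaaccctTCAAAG

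Cdk4 (chromosome 10, 126500590 to 126504976, plus strand, ENSMUSG00000006728) lies among many genes, with 30 other coding start sites in its window, the most of the 8 genes. Its domain was 10.7 kb long and held 0 peaks. The 3 window peaks, numbers 719 to 721, lie 144 to 232 kb upstream beyond 7 or 8 other coding start sites, and Xrcc6bp1 was the nearest coding start of each. They are narrow, at 537, 679 and 790 bp, and 99.0% of all peaks are at least as wide as the narrowest of them. No peak followed downstream for 3181 kb.

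Cdkn1c (p57) is at 150644255 to 150646955 of chromosome 7, minus strand (ENSMUSG00000037664), in an imprinted domain in which the maternal copy is the expressed one. It was the nearest coding start site of 6 of its 7 window peaks. All 7 lie downstream, on the side of Kcnq1, and no coding start site stands between any of them and the gene. Peak 5794 (chr7:150630616-150631673) is 15.8 kb from the start site, 5793 (chr7:150623756-150624371) 22.9 kb and 5792 (chr7:150613947-150615082) 32.4 kb, all in the intergenic stretch between the ends of Cdkn1c and Kcnq1. Peaks 5791, 5790 and 5789 follow at 71.0, 72.1 and 120 kb and peak 5788 at 307 kb, in introns of Kcnq1. These 4 are within the body of the potassium channel gene, which is transcribed towards Cdkn1c.

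The 6 nearest peaks of Cdkn1c fill 105 kb. Upstream the next peak is 577 kb away. The same 7 peaks fall in the domain of Kcnq1 (0.934 expected, adjusted p = 0.00776 by the one-sided exact binomial test), so the count does not assign them to either gene. None of the 7 is wide. They measure 616 to 1136 bp, and 2 of them reach the median width of all peaks. When only peaks of at least the median width were counted, the domain of Cdkn1c held 2 against 0.470 expected and did not pass (adjusted p = 1, exact binomial test). Joining peaks less than 5 kb apart merged 5790 and 5791 and left 6 against 0.864 (adjusted p = 0.0418, exact binomial test).

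The 6 peaks that have Cdkn1c as their nearest coding start site are given with the 150-base stretches chosen as above, since they make up most of the count in the domain test. Peak 5793 has a GC content of 69.5%, the highest of the 34.
Cdkn1c peak 5794, chr7:150631040-150631189: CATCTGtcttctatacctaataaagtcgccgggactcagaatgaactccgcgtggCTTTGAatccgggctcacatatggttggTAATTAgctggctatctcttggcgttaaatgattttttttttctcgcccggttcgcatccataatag
Cdkn1c peak 5793, chr7:150624113-150624262: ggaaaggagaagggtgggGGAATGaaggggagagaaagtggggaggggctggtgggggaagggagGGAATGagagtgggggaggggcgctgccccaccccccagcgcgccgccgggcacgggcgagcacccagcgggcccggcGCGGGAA
Cdkn1c peak 5792, chr7:150614340-150614489: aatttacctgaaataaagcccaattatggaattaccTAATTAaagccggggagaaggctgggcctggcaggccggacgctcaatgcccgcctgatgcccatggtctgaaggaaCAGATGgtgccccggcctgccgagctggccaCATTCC
Cdkn1c peak 5791, chr7:150575580-150575729: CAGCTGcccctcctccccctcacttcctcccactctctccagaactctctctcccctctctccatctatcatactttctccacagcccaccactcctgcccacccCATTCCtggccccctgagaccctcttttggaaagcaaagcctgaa
Cdkn1c peak 5790, chr7:150574817-150574966: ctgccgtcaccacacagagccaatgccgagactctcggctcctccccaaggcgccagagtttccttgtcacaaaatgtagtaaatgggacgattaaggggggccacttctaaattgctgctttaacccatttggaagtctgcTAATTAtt
Cdkn1c peak 5789, chr7:150526601-150526750: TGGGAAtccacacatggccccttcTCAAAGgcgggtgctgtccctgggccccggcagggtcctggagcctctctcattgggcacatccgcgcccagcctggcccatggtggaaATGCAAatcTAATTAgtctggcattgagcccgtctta
Peaks 5794, 5792, 5790 and 5789 each show a homeodomain motif, which is the only motif of the stretch in 5790. Beside it stand an E-box and a Tcf/Lef motif in 5794, an E-box and a Tead motif in 5792, and an Rbpj, a Tcf/Lef and a POU motif in 5789. Peak 5791 shows an E-box and a Tead motif, and peak 5793 shows 2 Tead motifs and an E2f motif. Neither of these 2 stretches holds a homeodomain motif. Since stretches were chosen for their motif bases, such matches are selected, and over whole peaks the homeodomain motif was in 46.7% of the full list.

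Cdkn1b (p27; chromosome 6, 134870419 to 134875531, plus strand, ENSMUSG00000003031) had 5 scattered peaks, 3 upstream and 2 downstream, and was the nearest coding gene of none. Peak 5450, at chr6:134812538-134813767, is 57.3 kb upstream with 1 coding start site between, that of Gpr19, from which it is 24.7 kb away. On the other side, peak 5451 is 168 kb downstream, near Gprc5a. Peaks 5448 and 5449 lie in introns of Lrp6, a Wnt co-receptor gene, at 425 and 419 kb, and peak 5452 lies near Emp1 at 432 kb. The domain of Cdkn1b, 84.2 kb long, held 0 peaks against 0.218 expected.
Cdkn1b peak 5450, chr6:134812821-134812970: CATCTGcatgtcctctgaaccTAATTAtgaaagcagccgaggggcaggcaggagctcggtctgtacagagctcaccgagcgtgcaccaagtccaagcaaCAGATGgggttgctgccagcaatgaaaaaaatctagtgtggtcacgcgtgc
This stretch holds 2 E-boxes and a homeodomain motif.

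Cdkn1a (p21, the inhibitor induced by p53) lies on chromosome 17 from 29227924 to 29237667 on the plus strand (ENSMUSG00000023067). Its single window peak, number 2661 at chr17:29534537-29535698, is 304 kb downstream beyond 7 coding start sites, and that of Fgd2 is the nearest at 37.2 kb. The nearest upstream peak is 1056 kb away. With 1361 kb around the start site free of peaks, Cdkn1a had the emptiest surroundings of the 3 inhibitors, against 593 kb for Cdkn1c and 225 kb for Cdkn1b.
Cdkn1a peak 2661, chr17:29535049-29535198: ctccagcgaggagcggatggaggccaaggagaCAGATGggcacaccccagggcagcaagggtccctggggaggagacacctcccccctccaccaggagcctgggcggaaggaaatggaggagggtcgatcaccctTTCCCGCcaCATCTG
The stretch has 2 E-boxes and an E2f motif.

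By midpoint, 12 of the 34 window peaks lay inside gene bodies and 22 between genes. Among the 12, peak 2703 overlaps an annotated exon, and the others overlap none. Of the peaks in gene bodies, 2 were inside the member itself, in Ccnd2 and in Cdk6. The median width of the 34 peaks was 1015 bp, against 1017 bp in the whole list, and 17 of 34 reached that median. The median GC content was 52.9% in them and 45.2% in the whole list. A GC content of at least 50%, a limit set after the values were seen, was found in 21 of the 34 peaks, or 61.8% with an exact Clopper-Pearson 95% interval of 43.6 to 77.8%, and in 25.2% of all peaks. All 7 peaks of Cdkn1c were above this limit, at 52.4 to 69.5%, and so were the 3 of Ccnd1 and the 1 of Cdkn1a. All 5 peaks of Cdkn1b were below it, at 37.9 to 49.9%, and so were the 3 of Cdk4 and the 1 of Cdk6. The windows of Ccnd2 and Ccnd3 each held 5 above and 2 below. Neighbouring peaks share local base composition, so the 34 are not independent.

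**Figure D4:**
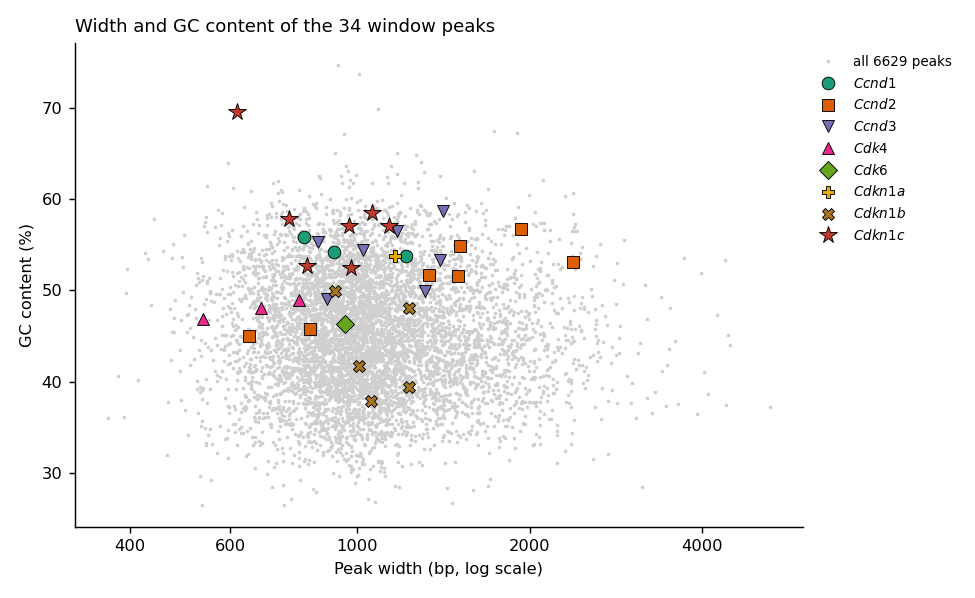
Width in bp, on a logarithmic horizontal axis, and GC content in percent, on the vertical axis, of the 34 window peaks by gene and of all 6629 peaks in grey. The window peaks run from 537 to 2375 bp and from 37.9 to 69.5% GC, with the peak at 616 bp and 69.5% belonging to Cdkn1c.

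Peaks rich in CpG were few but present. Those with a GC content of at least 50% and an observed to expected CpG ratio of at least 0.6 numbered 4 of 34 (11.8%, exact Clopper-Pearson 95% interval 3.30 to 27.5%), against 1.12% of all peaks. They were 5793 and 5794 beside Cdkn1c, with ratios of 0.833 and 0.769, and 2704 and 2707 at Foxp4 in the window of Ccnd3, with 0.609 and 0.633. This limit too was set after the values were seen.

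Short motifs were searched as exact letters on both strands over the whole peak, and a match is a description, not a bound site. The E-box CAGATG, the form read by Neurod and Neurog factors, was in 27 of the 34 peaks (79.4%) and in 74.8% of all peaks. The E-box CAGCTG was in 55.9% against 56.3%. The homeodomain core TAATTA was in 44.1% against 46.7%, the Sox motif ACAAAG in 55.9% against 66.3%, and the Nfi motif TTGGCA in 50% against 60.7%. The POU motif ATGCAA was in 41.2% against 49.5%, the Tcf/Lef motif CTTTGA in 58.8% against 56.9%, and the Tead motif GGAATG in 38.2% against 47.5%. The forkhead motif TGTTTAC and the Rfx motif GTTGCCA were each in 17.6% of the window peaks, against 17.6% and 16.5% of all peaks. For these 10 motifs the share of all peaks fell inside the exact 95% interval of the window peaks. Motifs can overlap, as where the letters TTGGCA run into CAGATG in peak 2702.

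The other 2 motifs fell outside. The E2f motif TTCCCGC, a sequence read by the factors that cyclin D activity releases, was in 6 of 34 peaks, or 17.6% (6.76 to 34.5% by the exact Clopper-Pearson method), and in 4.27% of all peaks. The 6 were 5792 and 5793 at Cdkn1c, 2704 and 2707 at Foxp4, 2661 in the window of Cdkn1a and 5452 in that of Cdkn1b. None of the peaks of Ccnd1, Ccnd2, Cdk4 or Cdk6 held it. Base composition moved with this motif: among peaks of at least 50% GC it was in 8.15% of all and in 5 of the 21 window peaks (23.8%, exact Clopper-Pearson 95% interval 8.22 to 47.2%). Its letters contain a CpG, and peaks 2704, 2707 and 5793 are also among the CpG-rich peaks. That class made up 11.8% of the window peaks and 1.12% of all peaks. Whether the E2f share differs at equal CpG content was not tested. The Rbpj motif TGGGAA, of the Notch pathway's factor, was in 16 of 34 peaks, or 47.1% (29.8 to 64.9% by the same method), and in 66.6% of all. It was in 1 of the 7 peaks of Cdkn1c. With 12 motifs described and no correction made, an interval that misses the whole-list share is not a test result.

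**Figure D5:**
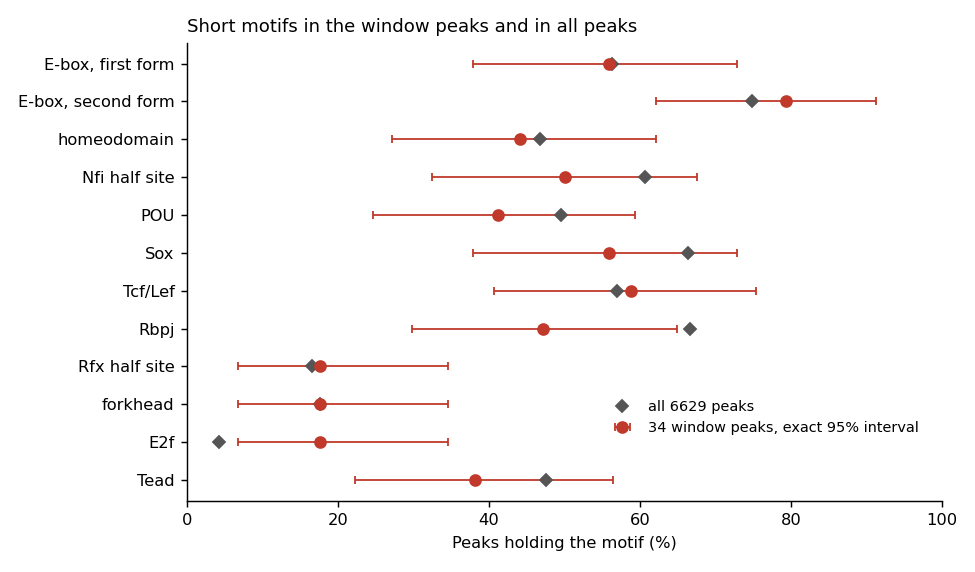
Share of peaks that hold each of 12 short motifs, on the horizontal axis in percent; circles are the 34 window peaks with exact Clopper-Pearson 95% intervals, and diamonds are all 6629 peaks. The first form of the E-box is CAGCTG, and the second is CAGATG, the form read by Neurod and Neurog. Only E2f (17.6 against 4.27%) and Rbpj (47.1 against 66.6%) have the diamond outside the interval.

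Values for other genes of the cell cycle stand beside these as a description. The 35 genes listed, among them E cyclins, Cdk2, Ink4 inhibitors, the retinoblastoma family, E2f factors, replication licensing genes and the Myc genes Myc and Mycn, had a median of 2 window peaks (range 0 to 13) against 4 for the 8 genes (range 1 to 7) and 1 for all protein-coding genes. At least 5 peaks were present for 10 of them (28.6%), and 10 had 0. A peak within 50 kb was found for 1 (2.86%), and 2 (5.71%) were the nearest coding gene of a peak. In the domain test 0 of the 35 passed, also at an unadjusted p under 0.05, where 4.33% of all protein-coding genes did. The number of peaks expected differed between their domains, at 0.0155 for Pcna, 0.101 for E2f1 and 0.869 for Mycn, against 0.938 for Cdkn1c. The domain of Mycn held 3 peaks. Whether domain length bears on the absence of calls was not tested. The highest window counts were 13 for Mycn, 12 for the retinoblastoma relative Rbl2 and 8 for each of E2f1 and E2f3. Mycn was the nearest coding gene of 3 of its peaks, while for Rbl2, E2f1 and E2f3 this number was 0.

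Among 15 genes that mark radial glia, the cortical progenitors, the median was also 4 (range 0 to 13). Of them, 6 (40%) had a peak within 50 kb, against 25% of the 8 genes and 12.8% of all protein-coding genes. The domain test was passed by 2, against 1 of the 8 genes and 1.14% of all protein-coding genes. The 2 were Sox2, with 16 peaks against 4.05 expected (adjusted p = 0.00117), and Pax6, with 7 against 1.28 (adjusted p = 0.0366, both by the exact binomial test). The 138 ribosomal protein annotations, pseudogenes annotated as coding included, had a median of 1.5 peaks (range 0 to 16). At least 5 were present for 19.6% of them and a peak within 50 kb for 21.0%, against 17.8% and 12.8% of all protein-coding genes. The domain test was passed by 6 of the 138, where 1.14% of all protein-coding genes passed. Rplp1, 1 of these 6, had the most window peaks. Rpl30-ps8 and Rpl36-ps3, pseudogenes by name, followed with 13 each. Both are also among the 6 that passed (adjusted p = 0.0166 and 0.000568, exact binomial test). No test was made between these lists and the 8 genes.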

How the data were processed

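Chromatin of 1 sample of E14.5 dorsal cerebral wall gave 1 p300 library and 1 input library. The authors aligned reads to mm9, called peaks over the input with MACS 1.4, as the submitters' processing notes name it, and then dropped those on exons, close to transcription start sites or in regions where reads may map to several places. The deposited list gives the chromosome, start, end and name of 6629 peaks, without score or read count, so the depth behind a peak is not known from it. The input library was not analysed here.

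Positions were compared with the mm9 assembly (NCBIM37) and GENCODE vM1 (37273 genes), with 1 start site a gene, taken from the transcript whose coding sequence is longest. Windows, nearest start sites, regulatory domains and motifs were computed in Python 3.11.15 with numpy 2.4.6, pandas 2.3.3 and scipy 1.17.1, and figures drawn with matplotlib 3.10.9. The assembled chromosomes hold 2.56 Gb. The binomial test was run on all 22367 protein-coding genes. Domains were checked against a direct calculation for a random draw of the annotated genes. The test and the motif search were tested on simulated data. Intervals cover counting error only.

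The 8 genes, the other gene lists and the motifs were chosen with earlier results of these data known. All 8 genes were named, with the 3 other cell cycle genes and 2 genes of the other lists with the most window peaks, ties included, and the coding genes beside a peak. GREAT with its curated domains and the reads were not used here.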

Additional observations from a re-analysis of the deposited data

How the results depend on the processing

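The 34 window peaks became 18 with a window of 250 kb and 64 with 1 Mb. Among the 3324 peaks that reach the median width, 17 were left, the peaks nearest to a member fell from 8 to 3, and 0 members passed the domain test, with 154 genes passing in all against 255. Cdkn1c is the member whose call was lost there. Fewer peaks enter that list, and the ratio for Cdkn1c was 4.25 in it against 7.47 with all peaks. The cause of the lost call was not tested. Leaving out genes with model or clone names raised the members that passed to 2, Ccnd2 and Cdkn1c. Joining peaks under 5 kb apart, with 158 genes passing in all, kept the call of Cdkn1c, as did domains between all genes (adjusted p = 0.0125, exact binomial test) or an extension of 500 kb (adjusted p = 0.00904, exact binomial test). Counting any overlap or taking the most upstream start of each gene left the total at 34. Of the counts for single genes, 35 of 48 window counts stayed within 1.5 times. In the middle 500 bp the E2f motif was in 17.6% of the window peaks and 2.32% of all, while the Rbpj share of all peaks, 41.2%, fell inside the interval of the window peaks (15.1 to 47.5%). Nearest genes among those without model or clone names were counted after the data were seen and again gave 8 peaks. No paired analysis was possible because there is 1 library of each kind.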

Other observations

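Between 500 kb and 1 Mb from the start site, 2 of the inhibitor genes had more p300 peaks than in the window. No test was made, and the share of all protein-coding genes for which this holds was not counted. For Cdkn1a, 13 peaks lay 617 to 933 kb downstream of the start site, against 1 in the window. The nearest coding start site was that of 1110021J02Rik for 8 of them, of Mdga1 for 3 and of Zfand3 for 2. For Cdkn1b, 6 peaks lay 521 to 642 kb downstream, against 5 in the window, and Emp1 was the nearest coding gene of all 6. Around Cdk4 no peak was added between 500 kb and 1 Mb.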
